A study of Homo sapiens with 10 samples.

Results

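The peaks described here are H3K27ac windows whose signal was higher at 2 h and 4 h of degrader treatment than both in the DMSO control and at 24 h. They were chosen from the deposited counts: in CPM (a window's count divided by the sum of its column, scaled to a sum of 1000000), each of the 4 libraries taken at 2 h and 4 h had to exceed each of the 4 libraries from DMSO and 24 h, and the mean CPM over the 8 libraries had to be at least 10. Of 42067 windows, 26191 had a mean CPM of at least 10, and 666 of these (2.54%, or 1.58% of all windows) met the rule. They are called transiently higher peaks below. The rule itself fixed their order, so the rise and the later fall are a description of how they were chosen and were not tested.

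H3K27ac was measured by chromatin immunoprecipitation and sequencing in Rh30, an established line of alveolar rhabdomyosarcoma, in cells whose PAX3-FOXO1 fusion carried the FKBP degron. Every group carried this tagged fusion. Cells received the solvent DMSO, with no time given in the labels, or dTAG47 at 500 nM lasting 2, 4 or 24 h. Each of the 4 groups had 2 libraries, A and B. Cells without the degron that received dTAG47 were not analysed here, so a response to the compound itself cannot be told apart from a response to loss of the fusion. The sources used here do not say whether the line is a single clone or whether libraries of a group came from separate cultures. The p-values therefore measure the spread between these libraries, which may be technical.

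Acetylation of histone H3 at lysine 27 is written by p300 and CBP and erased by histone deacetylases, and it marks promoters and enhancers in use. The mark turns over quickly, so it can move within hours of a change in the factors that recruit these enzymes. PAX3-FOXO1 is a transcription factor that binds distal enhancers together with myogenic factors and keeps them acetylated. A degrader such as dTAG47 joins an FKBP-tagged protein to the cell's ubiquitin machinery, so that the protein is removed while its gene stays intact. Positions are hg19, as the deposited table gives them. That table names no genes and the gene tables at hand are on another build, so peaks are named by position, and whether a peak is exonic, intronic or at a promoter was not assigned. No sequence of the windows was used here.

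The libraries held between 3540104 and 5001652 counts in windows. A transiently higher peak held 20 counts or more in every library and a median of 97, and all 666 passed the filter on low counts. The strongest 1% of windows took 6.90% to 6.99% of the counts in the 2 h libraries, 6.89% and 6.92% at 4 h, 7.02% and 7.04% in DMSO, and 6.90% and 6.97% at 24 h. The weakest 10% of windows took 1.66% and 1.502% of the counts at 2 h and 1.70% and 1.47% at 4 h, against 1.65% and 1.67% in DMSO and 1.86% and 1.77% at 24 h. On both measures the values of the 2 h and 4 h libraries overlapped those of the other 4.

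The transient rise was small, and in CPM it is a rise in a window's share of the library's counts. Total H3K27ac was not measured here, so a change common to all windows could not be seen. The mean of the 2 h and 4 h libraries was 1.201 times the mean of the other 4 in the median peak, from 1.02 to 1.67 times over the 666. It was at least 1.1 times in 615 peaks, at least 1.2 times in 337, at least 1.5 times in 8 and at least 2 times in 0. The gap between the groups was smaller still. The lowest of the 4 early libraries was 1.03 times the highest of the other 4 in the median peak, and at least 1.1 times in 76. Together these peaks took 1.97% of the counts in both DMSO libraries. Their share was 2.29% and 2.30% in the 2 h libraries, 2.29% and 2.30% in the 4 h libraries and 1.95% in both 24 h libraries. Relative to its own mean, the median peak stood at 0.922 and 0.923 in DMSO, 1.08 in all 4 libraries of 2 h and 4 h, and 0.917 and 0.914 at 24 h. The highest library of a peak was one of the 2 h pair in 171 (A) and 140 (B) peaks and one of the 4 h pair in 172 (A) and 183 (B), so no single early library held most of the maxima.

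**Figure D1:**
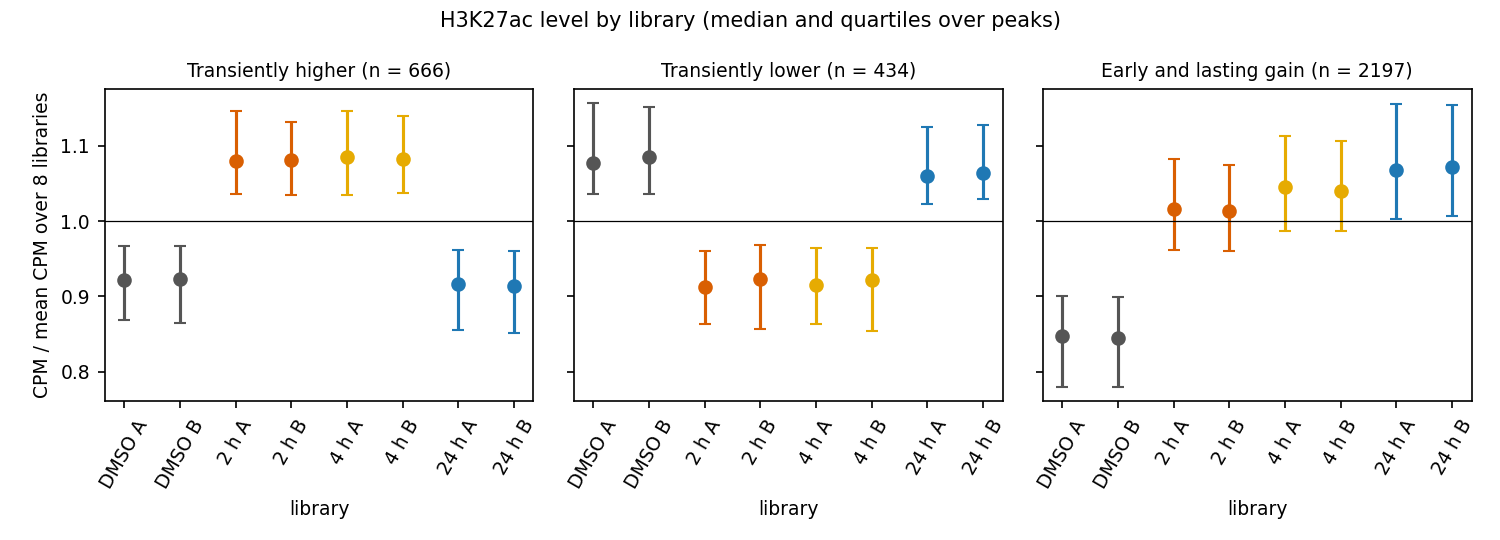
H3K27ac level of each library, as CPM divided by the peak's mean CPM over 8 libraries (points, median over peaks; bars, quartiles over peaks), for 666 transiently higher, 434 transiently lower and 2197 early and lasting gains, by library. In the first panel the 2 h and 4 h medians lie at 1.08 and the DMSO and 24 h medians at 0.914 to 0.923; the rules fixed which groups lie above which in each panel, except between treated groups in the last.

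The peaks with the widest gaps show the pattern most plainly. The first, on chromosome 21 at 37406132 to 37406532, held 8.76 and 11.3 CPM in DMSO, 16.0 and 16.2 after 2 h, 15.7 and 17.6 after 4 h, and 10.2 and 11.9 after 24 h. A second, on chromosome 10 at 100103808 to 100104208, held 12.4 and 9.87 CPM in DMSO, 16.0 and 16.4 after 2 h, 20.6 and 18.3 after 4 h, and 11.8 and 12.1 after 24 h. The mean of the early libraries was 1.55 and 1.54 times that of the others, and the 24 h libraries overlapped or lay within the range of the DMSO libraries. On chromosome 16 a peak at 66576273 to 66576673 held 10.5 and 8.46 CPM in DMSO, 15.5 and 15.2 after 2 h, 14.6 and 13.4 after 4 h, and 10.2 and 10.3 after 24 h. Another on chromosome 16, at 31009176 to 31009576, held 15.3 and 13.0 CPM in DMSO, 19.1 and 20.9 after 2 h, 20.9 and 19.5 after 4 h, and 13.4 and 12.6 after 24 h. The first of these was highest at 2 h and the second about level between 2 h and 4 h. The peak on chromosome 14 at 23905149 to 23905549 held 20.9 and 19.2 CPM in DMSO, 27.1 and 25.7 after 2 h, 32.4 and 25.5 after 4 h, and 20.6 and 17.9 after 24 h, and its pair of 4 h libraries lay furthest apart. The others of the 8 widest were on chromosome 22 (36851217 to 36851617), chromosome 6 (37090924 to 37091324) and chromosome 8 (103140770 to 103141170), with early libraries 1.34, 1.42 and 1.38 times the others. All 8 were of low to middling level, from 10.3 to 23.7 mean CPM, against a median of 24.1 over the 666.

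**Figure D2:**
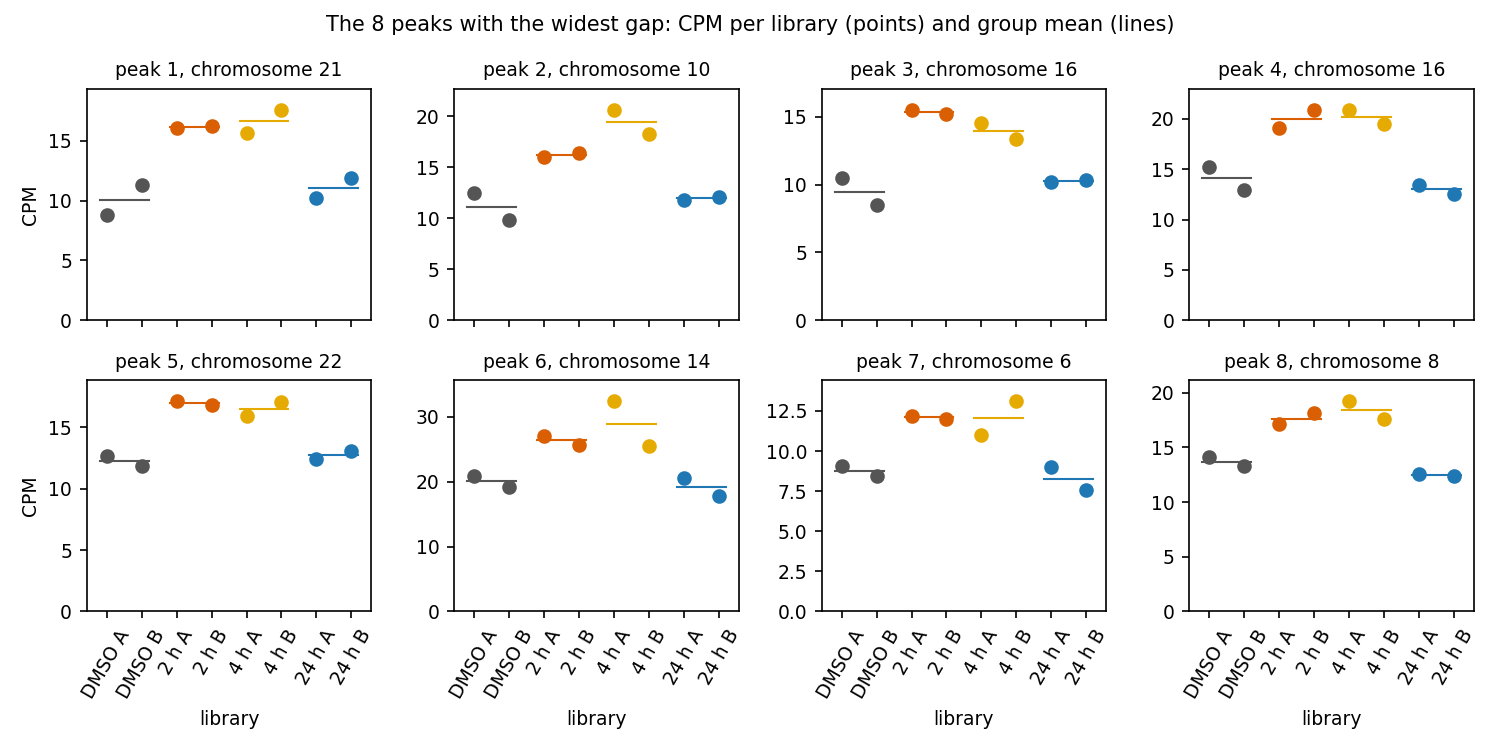
CPM in each library (points) and group mean of 2 libraries (lines) for the 8 transiently higher peaks with the widest gap, with axes from 0. In each panel the lowest 2 h or 4 h library lies at least 1.21 times above the highest DMSO or 24 h library.

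By mean level the largest rise was on chromosome 17 at 47528253 to 47528653, a peak singled out after its values were seen. It held 11.3 and 8.18 CPM in DMSO, 18.2 and 17.3 after 2 h, 16.2 and 11.4 after 4 h, and 9.40 and 8.93 after 24 h, so that one 4 h library lay just above the higher DMSO library. A peak on chromosome 10 at 105392198 to 105392598, singled out in the same way, held 9.04 and 8.74 CPM in DMSO, 18.0 and 14.3 after 2 h, 16.2 and 17.3 after 4 h, and 12.0 and 10.3 after 24 h. Its 24 h libraries both stayed above both DMSO libraries.

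Among the 6 strongest peaks the rises ran from 1.02 to 1.21 times. On chromosome 12 at 58240143 to 58240543 the level was 1089.8 and 1128 CPM in DMSO, 1153 and 1149.9 after 2 h, 1129 and 1140.0 after 4 h, and 1124 and 1123 after 24 h. Its early mean was 1.02 times the other mean, and the groups overlapped once libraries were scaled by TMM, by DESeq2 size factors or by offsets that follow abundance (lowest early over highest other library 0.986, 0.985 and 0.993). The next strongest, on chromosome 1 at 1240622 to 1241022, held 123 and 121 CPM in DMSO, 136 and 142 after 2 h, 142 and 142 after 4 h, and 106 and 115 after 24 h. That peak kept its order under all 3 scalings. A peak on chromosome 1 at 1093211 to 1093611 held 118 and 108 CPM in DMSO, 129 and 129.6 after 2 h, 124 and 130.1 after 4 h, and 117 and 115 after 24 h. The next were on chromosome 17 at 79504381 to 79504781 and chromosome 9 at 130213102 to 130213502, with early means 1.11 and 1.12 times the others. The last of the 6 strongest, on chromosome 17 at 27070988 to 27071388, had a ratio of means of 1.08, and its groups overlapped with offsets that follow abundance (0.989).

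At the edges of the rule the peaks differed little from those left out. The members with the lowest mean CPM, on chromosome 16 at 87828285 and chromosome 1 at 9488844 and 7646373, had 10.0 CPM each. The closest below, on chromosome 2 at 217204558, chromosome 17 at 16009100 and chromosome 6 at 129993290, had 9.98, 9.95 and 9.93. In all, 248 peaks had the order but a lower mean. The smallest ratio of lowest early to highest other library rounded to 1.00 on chromosome X at 46772069, chromosome 7 at 127983589 and chromosome 9 at 139902065. It also rounded to 1.00 just outside the order, on chromosome 10 at 104389908, chromosome 15 at 73925238 and chromosome 14 at 104822526.

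In the contrast that the rule used, the mean of 2 h and 4 h against the mean of DMSO and 24 h, edgeR's quasi-likelihood test called 56 of the 666 higher at an adjusted p under 0.05, and 0.292% of all tested peaks. Nothing is read from that count, which the choice of peaks favours. The median log2 change was 0.27, with a median standard error of 0.11 per peak. The called members had an early mean 1.35 times the other mean in the median, and the uncalled 1.19 times, at similar levels (medians 24.8 and 23.9 CPM). The count was lower when any single library was left out, and so was the count over all tested peaks. Such a fit leaves a group with a lone library, so nothing is read from the drop. Another 66 peaks were called that did not meet the rule. Of these, 49 had a mean CPM of at least 10, and in their median the lowest early library was 0.942 times the highest other library.

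Against DMSO alone, 13 members (1.95%) were called higher at 2 h, where 0.194% of all tested peaks were. At 4 h 17 members (2.55%) were, where 0.567% of all tested peaks were. Against 24 h alone, 88 members (13.2%) were called higher at 2 h, where 2.49% of all tested peaks were. At 4 h 33 members (4.95%) were, where 0.68% of all tested peaks were. These contrasts too were used by the rule and share libraries. Median log2 differences were 0.24 for 2 h and 0.24 for 4 h against DMSO, and 0.28 and 0.27 against 24 h. In 11 peaks the rise from DMSO and the fall to 24 h were each called at one of the early times, as in 15 of all 41791 tested peaks. The rule chose its peaks for this rise and fall, so nothing is read from that count.

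The rule ordered neither DMSO against 24 h nor 2 h against 4 h, although it kept each pair on one side and so limited how far apart they could lie. Between DMSO and 24 h, edgeR called 1 of the 666 higher at 24 h, where 3.46% of all tested peaks were called higher. It called 7 lower, 1.05% of the 666, where 4.88% of all tested peaks were called lower. Both shares lay below the background, and nothing is read from that because the rule limited these changes. The median log2 change was -0.03 (quartiles -0.12 and 0.05), against 0.00 over all tested peaks and -0.02 over peaks of at least 10 CPM. In 396 of 666 (59.5%) the change was negative, against 52.9% of peaks of at least 10 CPM. Both 24 h libraries lay below both DMSO libraries in 139 of the 666 (20.9%), against 24.2% of peaks of at least 10 CPM and 22.6% of all windows. They lay above both in 109 (16.4%), against 25.8% and 27.4%. The 109 also met the rule for an early and lasting gain (all 6 treated libraries above both DMSO libraries), and they were 4.96% of the 2197 peaks that did.

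The member called higher at 24 h lay on chromosome 7 at 157112874 to 157113274. It held 5.65 and 7.33 CPM in DMSO, 13.3 and 12.9 after 2 h, 12.4 and 13.6 after 4 h, and 10.8 and 11.4 after 24 h, so its 24 h libraries lay between the other groups (log2 change 0.75, SE 0.25, edgeR adjusted p = 0.0443). Of the members called lower, the one with the lowest p lay on chromosome 17 at 74025772 to 74026172. It held 29.4 and 31.3 CPM in DMSO, 32.1 and 31.6 after 2 h, 33.5 and 32.6 after 4 h, and 21.4 and 18.3 after 24 h (log2 change -0.63, SE 0.15, edgeR adjusted p = 0.00160). There the early rise was slight and the later fall went well below DMSO. On chromosome 4 a peak at 7136782 to 7137182 held 31.9 and 25.4 CPM in DMSO, 34.0 and 35.2 after 2 h, 36.0 and 33.4 after 4 h, and 19.4 and 21.5 after 24 h (log2 change -0.51, SE 0.15, edgeR adjusted p = 0.0165). On chromosome 9 a peak at 137908669 to 137909069 held 40.7 and 32.7 CPM in DMSO, 44.5 and 41.9 after 2 h, 46.7 and 44.0 after 4 h, and 26.8 and 28.6 after 24 h (log2 change -0.43, SE 0.13, edgeR adjusted p = 0.0235). In both, the DMSO libraries lay further apart than those of any other group. On chromosome 3 a peak at 38622059 to 38622459 held 22.3 and 22.8 CPM in DMSO, 25.7 and 24.7 after 2 h, 24.7 and 26.7 after 4 h, and 15.2 and 16.2 after 24 h (log2 change -0.55, SE 0.17, edgeR adjusted p = 0.0237). The DESeq2 Wald test called 0 of the 666 in either direction, and 93 higher and 391 lower over all peaks. Before adjustment, edgeR gave a p under 0.05 to 3 of the 666 (0.450%) that were higher and 29 (4.35%) that were lower, against 9.83% and 11.2% of all tested peaks. The higher call was lost without each library in turn, although 1 other member was called without DMSO library A. Lower calls were fewer when any single DMSO or 24 h library was left out, both among the 666 and over all tested peaks. Each of the 5 named calls was lost without at least one library: the one on chromosome 17 without DMSO B (adjusted p = 0.0534) or 24 h B (0.0567), those on chromosomes 4 and 9 without DMSO A (0.387 and 0.461) or 24 h A (0.188 and 0.194), that on chromosome 9 also without 24 h B (0.0588), and those on chromosomes 7 and 3 without any one of the 4 libraries (0.0687 to 0.353).

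Between 2 h and 4 h, edgeR called 0 of the 666 higher and 0 lower, and 0.0% of all tested peaks in either direction. DESeq2 also called 0. At an unadjusted p under 0.05 in edgeR, 4 (0.601%) were higher and 7 (1.05%) lower at 4 h, against 3.30% and 3.62% of all tested peaks. The median log2 change was -0.0038, and 320 of 666 (48.0%) were higher at 4 h, against 48.2% of peaks of at least 10 CPM. Both 4 h libraries lay above both 2 h libraries in 112 (16.8%), against 18.1% of peaks of at least 10 CPM and 18.4% of all windows. They lay below both in 114 (17.1%), against 17.5% and 17.1%. Single peaks ranged from -0.38 to 0.52. As for 24 h against DMSO, nothing is read from these counts, because the rule limited the change.

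**Figure D3:**
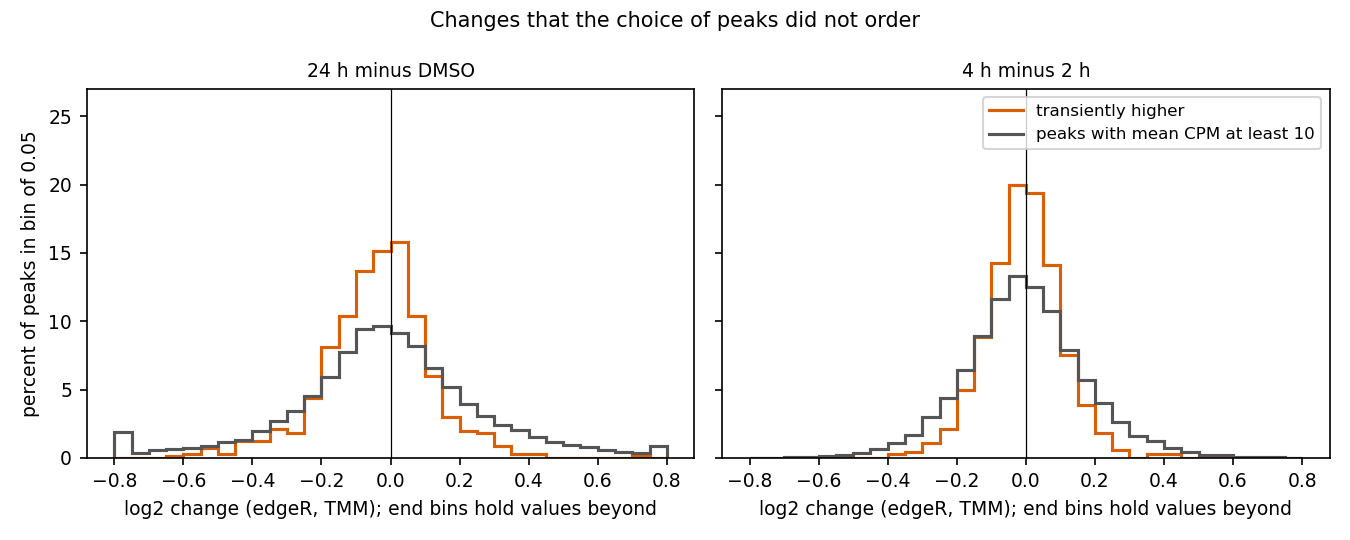
Share of peaks (%) by log2 change from DMSO to 24 h and from 2 h to 4 h, in bins of 0.05, for the 666 transiently higher peaks and all peaks with a mean CPM of at least 10; end bins also hold values beyond them. The transiently higher peaks are more closely grouped in both panels, and the rule itself limits how far apart these groups lie, with medians of -0.03 and -0.0038.

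Position was not used to choose the peaks. Peaks close to a transiently higher peak leaned the same way. Among peaks of at least 10 CPM, 216 lay within 2 kb of another transiently higher peak, and 22 of them (10.2%, exact 95% binomial interval 6.49% to 15.0%, counting error only) met the rule themselves, against 2.54% overall. In edgeR's fit with TMM, the log2 level averaged over 2 h and 4 h exceeded that over DMSO and 24 h in 179 of the 216 (82.9%). It did so in 54.8% of all peaks of that level. The median log2 difference was 0.14 against 0.01. Leaving out those that met the rule, 157 of 194 (80.9%) still leaned that way. From 2 to about 13 kb, 4.56% of 636 peaks met the rule and 70.9% leaned up, from there to 50 kb 4.96% of 1876 and 64.6%, at 50 to 200 kb 3.10% of 4285 and 61.6%, and beyond 200 kb 2.03% of 19178 and 51.5%. The lean thus fell with distance and was near even beyond 200 kb. It also differed with local peak density. Across quintiles by the number of other peaks within 500 kb, 46.2% leaned up in the sparsest and 60.3% in the densest. The part of density in the fall with distance was not tested. Of 973 tested peaks within about 13 kb, 14 (1.44%) were called higher in the early libraries, against 0.292% of all tested peaks, but these 973 include 51 that the rule itself chose. Among the 801 neighbours of at least 10 CPM that did not meet the rule, 4 (0.499%) were called. The share over all peaks of that level was 0.401%, but this includes the called members and so is not a like comparison. Among peaks of that level that did not meet the rule, 12 of 4152 (0.289%) were called at 50 to 200 kb. Beyond 200 kb, 28 of 18789 (0.149%) were. The share near members was thus higher than among distant non-members, but it rests on 4 peaks. Neighbouring windows can share DNA fragments, since the smallest step between starts was 432 bases, and peaks are not independent replicates, so no test was made.

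**Figure D4:**
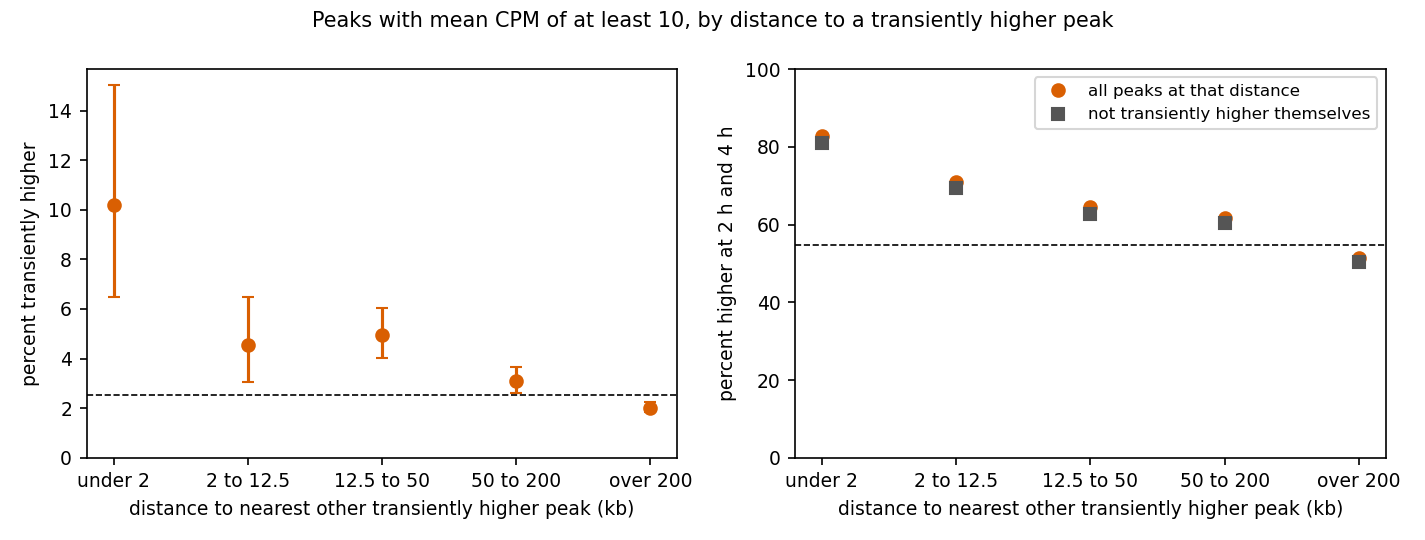
Peaks with a mean CPM of at least 10, by distance to the nearest other transiently higher peak (kb). Left, the share (%) that were transiently higher, with exact 95% binomial intervals. Right, the share (%) with a positive log2 difference of 2 h and 4 h against DMSO and 24 h (edgeR, TMM). Dashed lines mark all peaks of that level, 2.54% and 54.8%; the shares fall from 10.2% and 82.9% within 2 kb to 2.03% and 51.5% beyond 200 kb.

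Most transiently higher peaks nevertheless stood alone in the pattern. When peaks within about 13 kb were joined into regions, the 666 fell in 622 regions, of which 581 held 1, 38 held 2 and 3 held 3. Another member lay within 50 kb for 21.6% of them, against 8.53% of the 434 transiently lower peaks (each 2 h and 4 h library below each of the others) and 44.2% of the 2197 early and lasting gains. These shares move with the number of peaks in a set and were not tested.

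Of the 3 regions with 3 members, the one with the highest mean level was on chromosome 17 at 76250257 to 76413661, with 32 peaks. Its member at 76396792 to 76397192 held 27.4 and 29.9 CPM in DMSO, 40.1 and 43.2 after 2 h, 39.8 and 40.6 after 4 h, and 34.4 and 30.2 after 24 h, and the others were at 76386852 and 76397830. The 29 peaks of this region that were not members summed to 1557 and 1538 CPM in DMSO, 1562 and 1616 after 2 h, 1619 and 1621 after 4 h, and 1535 and 1537 after 24 h. In column-sum CPM their sum thus had the same order as the members, and 23 of the 29 leaned up. The margin was narrow, with 1562 CPM in 2 h library A against 1557 in DMSO A. The TMM factors of these libraries, 1.0052 and 0.99276, lie further apart than that margin, so the order of the sum depends on the scaling. Chromosome 20 held such a region of 11 peaks, from 30399712 to 30433425, with members at 30399712, 30403632 and 30424769. Its other 8 peaks summed to 277 and 265 CPM in DMSO, 307 and 319.7 after 2 h, 337 and 329.9 after 4 h, and 322 and 335 after 24 h. Their sum thus rose early and stayed up. On chromosome 2 a region at 28524102 to 28615959 had members at 28524102, 28561652 and 28601256, and 6 of its 12 other peaks leaned up. The last of the 4 regions, on chromosome 12 at 58106998 to 58290552, had a mean level of 172 CPM per peak and holds the strongest member. The region's other member, at 58230821 to 58231221, held 103 and 103 CPM in DMSO and 115 and 109.6 after 2 h. It held 117 and 114 after 4 h, and 96.6 and 90.6 after 24 h. The sum of the 33 other peaks was instead highest at 24 h (4942 and 4929 CPM, against 4620.1 to 4846 in the other 6 libraries). Of these 33 peaks, 11 leaned up in the early libraries.

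Transiently higher peaks were more frequent where peaks were dense. Peaks of at least 10 CPM were split into quintiles by the number of other peaks within 500 kb, whose medians were 10, 20, 31, 42 and 62. The share that met the rule was 1.28%, 1.72%, 2.60%, 3.26% and 3.86% from the sparsest to the densest. Transiently lower peaks did not follow this order, with 1.95%, 2.04%, 1.53%, 1.26% and 1.51%, while early and lasting gains had 5.78% in the sparsest and 12.0% in the densest. The median log2 difference of all peaks between early and other libraries moved the same way, from -0.01 in the sparsest quintile to 0.03 in the densest, and median levels were similar (24.9, 22.0, 23.2, 24.5 and 26.4 CPM). With offsets that follow each library's drift with level, the shares were 1.05%, 1.51%, 2.21%, 2.54% and 3.02%. Transiently lower peaks then had 2.79% in the sparsest quintile and 1.76% in the densest. The part of level in the density trend was not tested.

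**Figure D5:**
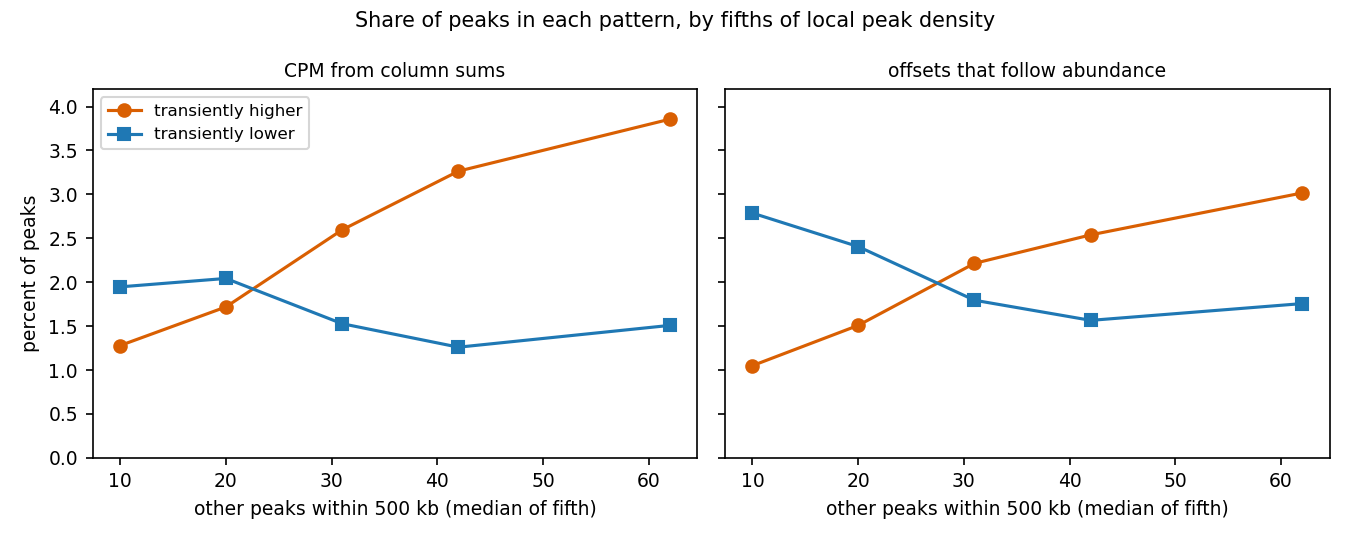
Share (%) of peaks with a mean CPM of at least 10 that were transiently higher or transiently lower, by quintile of the number of other peaks within 500 kb (x axis, quintile median), with column-sum scaling (left) and offsets that follow abundance (right). Transiently higher peaks go from 1.28% to 3.86% on the left and from 1.05% to 3.02% on the right.

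Whole chromosomes differed as well. The share of peaks of at least 10 CPM that were transiently higher was 3.46% on chromosome 22 (24 peaks), 3.41% on chromosome 11 (49), 3.17% on chromosomes 1 (93) and 16 (37) and 3.14% on chromosome 17 (58). It was 0.806% on chromosome X (4 peaks), 0.826% on chromosome 13 (3), 1.30% on chromosome 6 (16) and 1.40% on chromosome 18 (4). Over 23 chromosomes with at least 100 such peaks, the share went with the number of windows per megabase (Pearson r = 0.70, Spearman rho = 0.81). For transiently lower peaks these were -0.31 and -0.34, and for early and lasting gains 0.55 and 0.66. All chromosomes share the same 8 libraries, so these values are a description. Base composition of the windows was not measured, and its part was not tested.

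Level also moved with the pattern. Over deciles of mean CPM of all windows, the order was found in 0.975% of the weakest and in 3.04% of the seventh decile (median 21.4 CPM), and in 1.85% of the strongest. The reverse order fell from 4.80% in the weakest decile to 1.17% in the eighth. The median log2 difference between early and other libraries was -0.14 in the weakest decile and 0.03 in the seventh. With offsets that follow abundance these medians were -0.02 and 0.00. Under those offsets 541 peaks met the rule, 501 of them among the 666. The transiently lower peaks of at least 10 CPM numbered 434 (1.66%) with column sums, fewer than the 666. With the offsets they numbered 541, against 541 transiently higher, so the excess of transiently higher over transiently lower peaks was not present under that scaling.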

How the data were processed

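H3K27ac was measured in 8 libraries. The values are whole-number counts per window as deposited by the authors, unnormalized. The windows are 400 bases wide with 2 exceptions. Per the submitters' processing notes, Trimmomatic 0.32, Bowtie2, MACS2, DiffBind and DESeq2 were used, with builds hg19 and dm3. Their roles and other versions are not stated in the sources used here. Whether starts count from 0 or 1 is not stated. The 2 DMSO input libraries were not analysed here. Columns without a group numbered 0.

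CPM used column sums. Windows were filtered with filterByExpr (minimum count 10, minimum total 15), which left 41791 tested. Changes were tested with edgeR 4.0.16 (quasi-likelihood, TMM, 1 model over the 4 groups; R 4.3.3, limma 3.58.1), with Benjamini-Hochberg adjustment over all tested windows and a threshold of 0.05. The scripts were tested on simulated data, with changes larger than the ratio of early to other mean in any of the 666 peaks. Alternatives were DESeq2 1.42.0, other scalings, including offsets that follow abundance (loess of each library on mean level, span 0.3), other filters, and leaving out each library. Summaries used Python 3.11.15, pandas 2.3.3 and scipy 1.17.1.

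Peaks were named by rule: the 8 with the widest gap, the 6 strongest, up to 4 per direction by lowest p among those called at 24 h against DMSO or 4 h against 2 h, the 4 joined regions with most members, and the 3 nearest each side of each threshold. The peaks, lists and rules were chosen with earlier results of these data known. Total counts limit precision to a median of 97 counts per peak and library.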

Additional observations from a re-analysis of the deposited data

How the results depend on the processing

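The rule gave 666 peaks, 667 with TMM (611 shared), 658 with DESeq2 size factors (608 shared), 541 with offsets that follow abundance (501 shared), 914 with no minimum and 401 with a minimum mean CPM of 20. Leaving out 1 library gave 1077 to 1238, since fewer conditions have to be met. For 24 h against DMSO, DESeq2 called 0 of the 666 higher and 0 lower, against 93 and 391 of all peaks. The offsets gave 0 higher and 8 lower, against 1446 and 2127 of all tested peaks. On leaving out 1 library, calls over all tested peaks were fewer in both directions, and lower calls among the 666 were fewer too. With column sums the median log2 change at 24 h was -0.00897, with all tested peaks at 0.02. The other alternatives kept it negative. For 4 h against 2 h the median was 0.00524 with column sums and -0.0282 to 0.00856 on leaving out 1 library, so its sign was not fixed, and each alternative called 0. Early against other libraries, in fits added after seeing the data, 58 were called with column sums, 45 with the offsets and 13 to 42 on leaving out 1 library. The share of peaks near a member that were members was 5.24% within about 13 kb, 9.73% within 2 kb and 4.36% within 50 kb. Also added after seeing the data, the ratio of lowest early to highest other library fell below 1 for the peak on chromosome 12 at 58240143 (0.986 with TMM, 0.985 with size factors, 0.993 with offsets) and on chromosome 17 at 27070988 (0.989 with offsets). The columns carry letters and not the labels' replicate numbers, so nothing ties libraries across groups, and A minus B differences correlated at -0.0351 to 0.0638 between pairs of groups (Pearson's r over 26191 peaks). With the letter as a replicate block, also added, 1 of the 666 was called higher and 7 lower at 24 h, against 1478 and 2087 of all tested peaks. That model called 0 at 4 h against 2 h. In the early contrast it called 64 of the 666 and 141 of all tested peaks. With 2 libraries a group, leaving one out assumes that the lone library varies like the other groups. The median standard error of the early difference was 0.11. The median change of 0.27 comes from peaks chosen for that difference, so nothing is read from setting it against the standard error.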
